A study of Mus musculus with 10 samples.

Results

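The glutamate, GABA and glycine receptor genes were compared between sorted sacral neural crest progenitors (NCPs) and total embryo. Members were chosen by gene symbol: all AMPA, kainate, delta, NMDA and metabotropic glutamate receptor genes, all GABA-A and GABA-B receptor genes and all glycine receptor genes with a probe set (the array's unit of measurement for a gene) of their own. The rule found 46 genes of the 19937 genes with such a probe set, and they were measured by 48 probe sets because *Gabrb2* alone had several. For that gene the brightest probe set, by the mean of the 10 arrays, was used.

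The NCPs (3 arrays) were H2BVenus+ cells from mice carrying the *Sox10*-H2BVenus transgene, collected at embryonic day 13 by fluorescence-activated sorting, and no treatment was given. The labels describe lower urogenital tract tissue as the starting material, whereas the methods describe dissected pelvic ganglia pooled from several fetuses per sample. The sort selects on a stable nuclear reporter under *Sox10* control, so it can include glia and recently formed neurons beside progenitors. Total embryo RNA (7 arrays) was the control, with no strain, genotype, stage or treatment of its own in the labels. The titles give the 3 NCP arrays 3 codes and the 7 total embryo arrays only 2 codes, with 3 arrays of one code and 4 of the other. Where arrays of 1 code repeat 1 RNA isolate, which the labels do not state, the total embryo arrays hold repeats of fewer RNA samples, and p-values measure the spread between arrays, which may be technical. Only total embryo array 1 shares its title ending with the NCP arrays. The comparison asked which receptor genes were higher or lower in the progenitors than in the embryo as a whole.

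Glutamate, GABA and glycine are the fast transmitters of the central nervous system. Their ionotropic receptors are ion channels built from subunits of separate genes, with glutamate opening cation channels and GABA and glycine opening chloride channels, and their metabotropic receptors act through G proteins. In immature neurons and progenitors GABA can depolarize the cell, and peripheral glia and autonomic neurons are known to carry some of these receptors, although fast transmission in autonomic ganglia is mainly cholinergic.

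All levels below are deposited log2 values, so a difference of 1 is a doubling. The NCP arrays had a narrower range of values than the total embryo arrays. The standard deviation over all probe sets was 1.07, 0.968 and 1.13 on NCP arrays 1, 2 and 3, against 1.78 to 1.91 in total embryo. Olfactory and vomeronasal receptor genes (1178 genes), which neither sample is known to use widely, served as a measured floor. Their median was 5.47, 5.63 and 5.39 on the NCP arrays, against 3.63 to 3.89 on the total embryo arrays. On the deposited scale 1128 of these 1178 genes passed the test as higher in NCPs, with a median log2 fold change of 1.66. This difference in range moved with every comparison below, and its part in each result was not tested. In bulk samples, fewer cells expressing a gene and less RNA per cell cannot be told apart.

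The receptor genes lay close to this floor in NCPs. The 95th percentile of the floor genes, taken as the floor limit of each array, was 6.78, 6.88 and 6.65 on NCP arrays 1, 2 and 3 and 5.33 to 5.49 on the total embryo arrays. None of the 46 receptor genes (0 of 46) was above the limit on all 3 NCP arrays, whereas 16 were above it on all 7 total embryo arrays. Of all 19937 genes, 1070 were above it on all 3 NCP arrays and 12515 on all 7 total embryo arrays. Few genes of any kind therefore passed this limit in NCPs, and whether the members differed from that share was not tested. *Gabrd*, which encodes the delta subunit of extrasynaptic GABA-A receptors, was the only member above the limit on 2 NCP arrays. Another 9 members were above it on a single NCP array, and 36 on no NCP array. By array, 4, 1 and 6 members exceeded the limit on NCP 1, 2 and 3, against 20 to 26 on each total embryo array. The 16 members above the limit on every total embryo array were *Gria1*, *Gria2*, *Gria3*, *Gria4*, *Grik5*, *Grin2b*, *Grin3b*, *Grm2*, *Grm3*, *Grm5*, *Grm7*, *Gabrb2*, *Gabrg3*, *Gabrp*, *Gabbr1* and *Gabbr2*, which include every AMPA subunit and both GABA-B subunits. A level at or below the floor limit bounds the signal on these arrays and does not show that a transcript is absent.

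**Figure D1:**
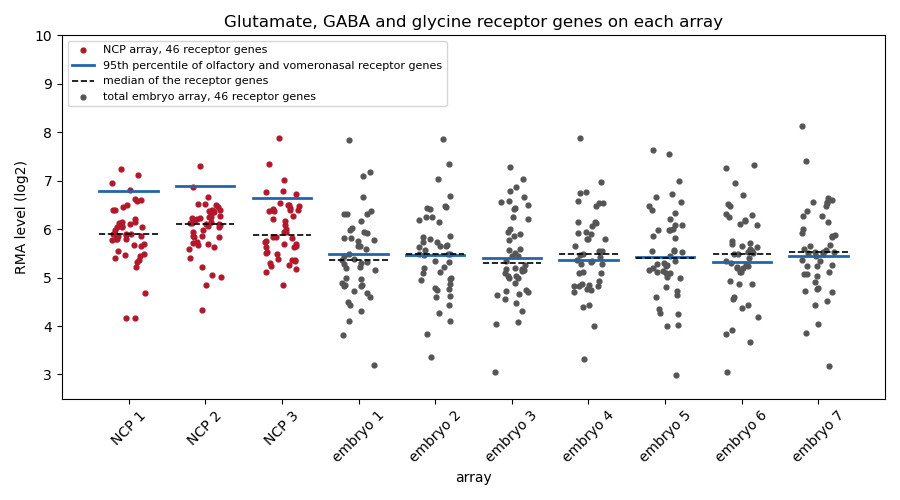
Deposited level (log2, vertical axis) of each of the 46 receptor genes on each array, NCP arrays in red and total embryo arrays in grey, with the dashed line at the median of the receptor genes and the blue line at the 95th percentile of olfactory and vomeronasal receptor genes on that array. Between 1 and 6 receptor genes lie above the blue line on an NCP array, against 20 to 26 on a total embryo array.

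As deposited, 23 of the 46 receptor genes rose in NCPs, 4 fell (*Gabrb2*, *Gria3*, *Grik5* and *Grm3*) and 19 did not pass (limma, adjusted p under 0.05 over all 28192 probe sets). Over all probe sets 39.6% were called higher and 27.5% lower. With arrays centred on the floor genes 1 member was higher and 38 were lower. In that setting 573 of all 19937 genes were higher and 16632 lower, so most genes shifted the same way. The median log2 fold change of the members was 0.54, against 0.079 over all genes. For 16 members the NCP arrays were higher than every total embryo array, and for 4 members lower, where 31.8% and 21.5% of all probe sets did so. Centring on the floor genes lowered every fold change by 1.69 on the log2 scale, including the median of all genes. Cyclic loess lowered the median of all genes by 0.12 and left 6 members higher and 6 lower, where 2913 and 3404 of all 19937 genes were. Averaging the arrays of each title code left 9 members higher and 1 lower. The calls lost were those of *Gabra2*, *Gabra3*, *Gabra4*, *Gabra5*, *Gabre*, *Gabrr1*, *Glra2*, *Glra4*, *Grik4*, *Grin2a*, *Grin2c*, *Grm4*, *Grm6* and *Grm8* among the genes that rose and of *Gria3*, *Grik5* and *Grm3* among those that fell.

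The direction of a member followed its level in the total embryo. All 23 members that rose belonged to the 30 that were not above the floor limit on every total embryo array, and all 4 that fell belonged to the 16 that were. For 21 of the 23, the fold change was below the floor genes' own median of 1.66. Both statements share the total embryo values with the fold change and are given as a description. All genes were divided into 5 equal bins by total embryo level. The 11 members of the lowest bin had a median log2 fold change of 1.04, against 1.48 for the other genes of that bin. Of these 11, 10 were called higher, where 95.3% of the other genes were. The 21 members of the second bin had a median of 0.66, against 0.59 for the others. Of these 21, 13 were called higher, where 57.3% of the others were. The 9 of the third bin had a median of -0.12, against 0.077, and the 4 of the fourth had -0.42, against -0.63. In the third bin 0 were called higher and 2 lower, where 17.8% and 8.85% of the others were. In the fourth 0 were called higher and 1 lower, where 2.91% and 55.8% of the others were. *Gabrb2* was the only member of the highest bin and had -1.76, against a median of -1.74 for the other genes there.

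**Figure D2:**
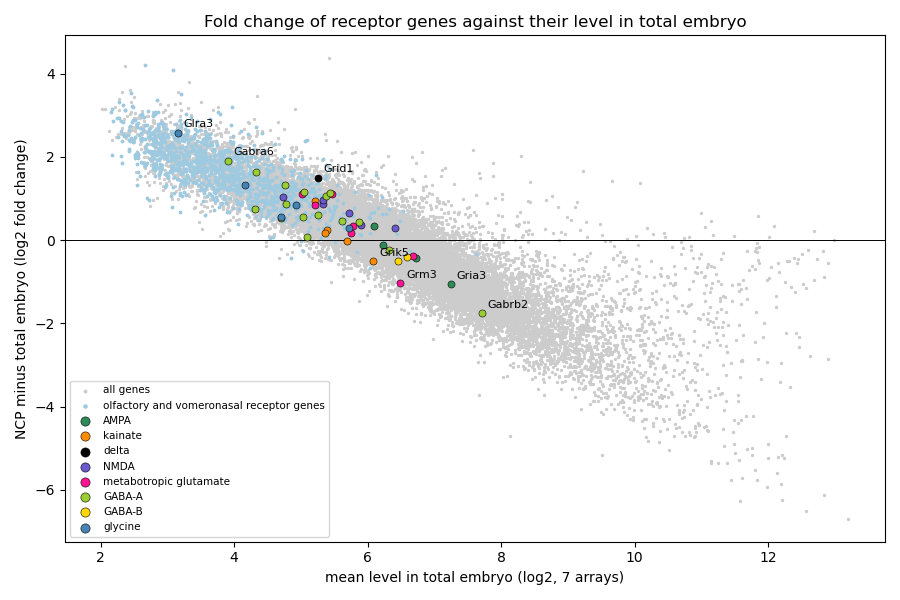
Log2 fold change, NCP minus total embryo (vertical axis), against the mean total embryo level (log2, 7 arrays, horizontal axis) for all genes in grey, olfactory and vomeronasal receptor genes in light blue and the receptor genes coloured by class. The receptor genes lie along the slope formed by all genes, with *Glra3* at 2.58 at the low end and *Gabrb2* at -1.76 at the high end, on the deposited scale.

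Because of this slope, each gene was also set against genes of similar level: on each array the smooth trend of the difference from the total embryo mean on that mean was subtracted, and the same test was run. The result is called the level difference here. By this measure 1 member was higher in NCPs (*Grid1*), 2 were lower (*Grik5* and *Grm3*) and 43 did not pass, where 10.3% and 8.29% of all probe sets were called higher and lower. Among all 19937 genes 1642 were higher and 1733 lower, and among the 1178 floor genes 81 and 85. The counts of members were below the share of all probe sets in both directions, which was not tested. At an unadjusted p under 0.05, 5 members were higher and 6 were lower, where 17.2% and 16.1% of all probe sets passed. These counts are small, and their difference from the background share was not tested. The members' median level difference was -0.077, with 19 positive and 27 negative values. When NCP array 2 was left out, 4 members were higher and 6 were lower, and without NCP array 1 they were 2 and 4. With arrays averaged per title code, with the title code as a random block, with array weights, or with the level taken from one title code and the difference from the other, 0 members passed in either direction.

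**Figure D3:**
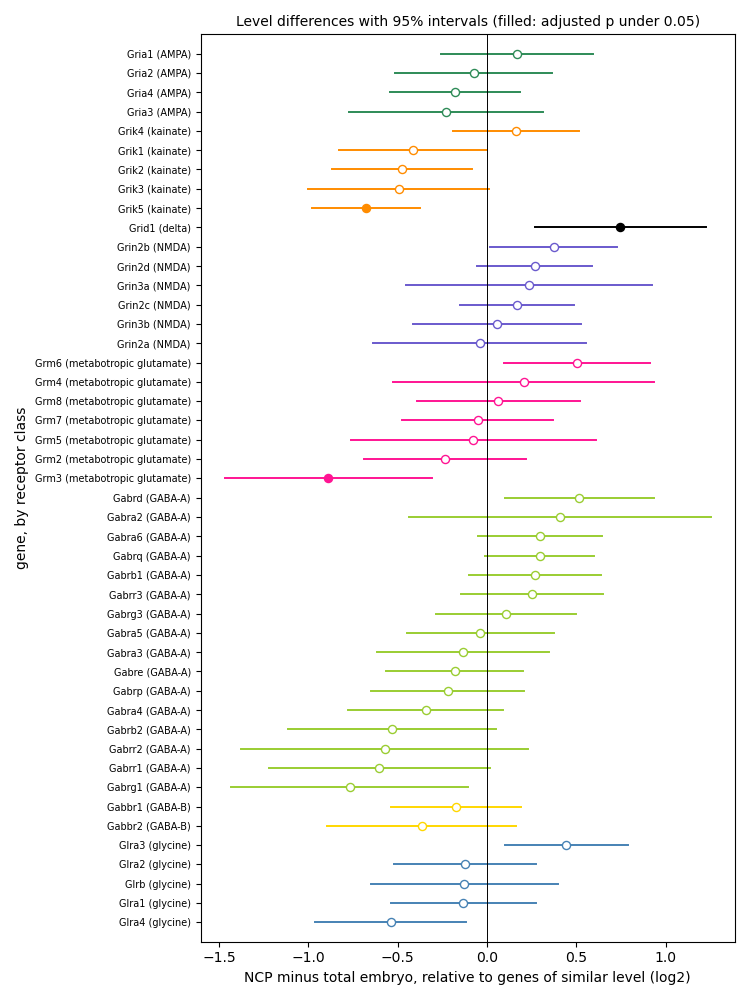
Level difference of each receptor gene, NCP minus total embryo relative to genes of similar level (log2, horizontal axis), with its 95% interval from limma, grouped by receptor class. Filled points passed at an adjusted p under 0.05: *Grid1* at 0.75, *Grik5* at -0.68 and *Grm3* at -0.89.

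*Grid1* encodes a delta-type glutamate receptor subunit, a relative of the ionotropic receptors known for linking the sides of a synapse rather than for glutamate-gated current. It read 6.39, 6.50 and 7.34 on NCP arrays 1, 2 and 3, against a lowest, median and highest value of 5.00, 5.33 and 5.51 on the total embryo arrays. The groups did not overlap, and NCP 3, the only array on which it exceeded the floor limit, was well above the other 2. The log2 fold change was 1.49 ± 0.21 (SE, n = 3 and 7, adjusted p = 5.04e-05, limma), and it was -0.20 with arrays centred on the floor genes. The level difference was 0.75 (95% interval 0.27 to 1.23, adjusted p = 0.035). As deposited, the fold change was above that of 97.0% of the 500 genes nearest in total embryo level. Without NCP 3 the level difference was 0.43 (adjusted p = 0.10), and the call was also lost without any 1 of total embryo arrays 1, 2, 3, 4, 5 and 7 (adjusted p = 0.053 to 0.061).

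Kainate receptors are built from the principal subunits of *Grik1*, *Grik2* and *Grik3*, which can form channels by themselves, and the partner subunits of *Grik4* and *Grik5*. *Grik5* read 5.49, 5.63 and 5.62 on NCP arrays 1, 2 and 3, against 5.90, 6.08 and 6.21 (lowest, median, highest) on the total embryo arrays. The 3 NCP values were the closest to each other of any member (SD 0.078) and all were below every total embryo value. The log2 fold change was -0.51 ± 0.14 (SE, n = 3 and 7, adjusted p = 0.0069, limma) and the level difference -0.68 (95% interval -0.98 to -0.37, adjusted p = 0.0056). This level difference was called in 16 of 20 alternative settings, more than for *Grid1* (8) or *Grm3* (9). The settings that lost it were those that averaged, blocked or crossed the title codes or weighted the arrays, with values of -0.68 to -0.73. As deposited, the *Grik5* call was lost with only the total embryo arrays of the NCP title series (adjusted p = 0.087) and with the title code as a random block (adjusted p = 0.091). *Grik4*, the other partner subunit, rose by 0.94 ± 0.16 on the log2 scale (adjusted p = 0.00026), with a level difference of 0.16.

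The principal kainate subunits did not pass either test. *Grik1* averaged 5.63 ± 0.41 in NCPs and 5.40 ± 0.15 in total embryo (SD, n = 3 and 7). *Grik2* averaged 5.67 ± 0.17 in NCPs and 5.70 ± 0.27 in total embryo. *Grik3* averaged 5.54 ± 0.50 in NCPs and 5.36 ± 0.29 in total embryo. Their level differences were -0.41, -0.47 and -0.50, with adjusted p between 0.086 and 0.16. The kainate class had the lowest median level difference of the classes with 4 or more members, -0.47, and its fold changes as deposited had a median of 0.18.

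*Grm3* encodes a group II metabotropic glutamate receptor, which lowers cyclic AMP and is known from astrocytes as well as neurons. It read 4.67, 5.99 and 5.68 on NCP arrays 1, 2 and 3, against 6.13, 6.48 and 7.0 (lowest, median, highest) on the total embryo arrays. NCP 1 was well below the other NCP arrays, and all 3 were below every total embryo array. The log2 fold change was -1.04 ± 0.26 (SE, n = 3 and 7, adjusted p = 0.0037, limma) and the level difference -0.89 (95% interval -1.47 to -0.31, adjusted p = 0.037). The fold change was below that of all but 1.8% of the 500 genes nearest in total embryo level. As deposited, the call was lost with only the total embryo arrays of the NCP title series (adjusted p = 0.057). Without NCP 1 the level difference was -0.49 (adjusted p = 0.12), and the call was also lost without any 1 of total embryo arrays 1, 2, 3, 4, 6 and 7 (adjusted p = 0.050 to 0.063).

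*Grm2*, the other group II receptor, averaged 5.92 ± 0.55 in NCPs and 5.75 ± 0.14 in total embryo and did not pass. Among the group III receptors, which also lower cyclic AMP and often sit on axon terminals, *Grm4*, *Grm6* and *Grm8* rose by 1.1, 1.1 and 0.83 on the log2 scale and *Grm7* did not pass (0.34, adjusted p = 0.15). The *Grm4* call was lost with the title code as a random block and without NCP 1 or NCP 3, and those of *Grm4* and *Grm8* with only the total embryo arrays of the NCP title series. *Grm6*, best known from retinal bipolar cells, read 7.12, 6.37 and 6.21 in NCPs, against 5.26, 5.48 and 5.56 (lowest, median, highest) in total embryo, with a level difference of 0.50 (adjusted p = 0.082). *Grm4* read 6.58, 5.02 and 6.76 in NCPs, against 4.72, 4.96 and 5.58 in total embryo. NCP 2 lay within the total embryo range, so the groups overlapped. *Grm5*, a group I receptor that releases intracellular calcium, read 7.25, 6.24 and 5.36 in NCPs, against 6.26, 6.66 and 7.03 in total embryo. These 3 NCP arrays spanned both sides of the total embryo range, and the fold change of -0.39 did not pass (adjusted p = 0.28).

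Promoter sequences of *Grik5* and *Grm3* are shown because these genes fell in both tests. *Grid1* had no entry in the promoter table. Of the 46 members, 35 had a promoter there (RefSeq, GRCm38.p6, 250 bases before to 50 after the gene start). The sequences run 5′ to 3′ on the minus strand and capitals mark GGGCGG, the core of the GC box, which was searched on both strands. The *Grik5* window is chr7:25072320-25072619 and the *Grm3* window is chr5:9725303-9725602.
Grik5: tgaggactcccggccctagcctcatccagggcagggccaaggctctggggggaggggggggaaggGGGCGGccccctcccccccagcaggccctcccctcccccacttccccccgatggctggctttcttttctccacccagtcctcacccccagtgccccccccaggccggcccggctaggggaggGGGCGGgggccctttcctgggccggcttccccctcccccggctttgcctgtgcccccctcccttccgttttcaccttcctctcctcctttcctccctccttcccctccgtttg
Grm3: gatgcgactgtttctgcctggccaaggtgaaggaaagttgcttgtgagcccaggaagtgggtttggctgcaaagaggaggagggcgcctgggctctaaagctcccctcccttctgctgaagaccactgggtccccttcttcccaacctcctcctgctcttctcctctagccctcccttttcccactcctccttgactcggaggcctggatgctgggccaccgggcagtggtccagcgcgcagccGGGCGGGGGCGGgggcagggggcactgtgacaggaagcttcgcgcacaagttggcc
Each window held 2 matches, and those of *Grm3* stand side by side. The GC content was 72.0% for *Grik5* and 63.7% for *Grm3*, against a median of 61.0% over the 35 receptor promoters and 52.7% over all 27025 promoters. GGGCGG was present in 57.1% of the receptor promoters and in 35.9% of all promoters. The letters ACAAAG or ACAATG, the core to which SOX proteins bind, were in 14.3% of the receptor promoters and 28.8% of all promoters, and in neither window printed here. A match describes the sequence and does not show a bound site.

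AMPA receptors carry most fast excitatory transmission in the brain. Each of the 4 subunit genes was above the floor limit on every total embryo array, and only *Gria3* passed the test. *Gria3* read 6.04, 6.86 and 5.65 on NCP arrays 1, 2 and 3, against 6.97, 7.26 and 7.54 (lowest, median, highest) in total embryo. NCP 2 came close to the lowest total embryo array, but the groups did not overlap. The log2 fold change was -1.06 ± 0.24 (SE, n = 3 and 7, adjusted p = 0.0016, limma), and the level difference of -0.23 did not pass (adjusted p = 0.56). The level difference was -0.61 without NCP 2, which passed (adjusted p = 0.035), and 0.067 without NCP 3. As deposited, the call was lost with arrays averaged per title code (adjusted p = 0.084), after a second quantile normalization (adjusted p = 0.070) and under cyclic loess (-0.36, adjusted p = 0.29). *Gria2*, whose subunit limits the calcium flow of the channel, read 6.60, 5.84 and 6.43 in NCPs, against 6.44, 6.68 and 7.10 in total embryo. The groups overlapped through NCP 1, and the fold change of -0.43 did not pass (adjusted p = 0.075). *Gria1* averaged 6.43 ± 0.24 in NCPs and 6.10 ± 0.28 in total embryo, and *Gria4* averaged 6.11 ± 0.33 in NCPs and 6.23 ± 0.11 in total embryo. Neither difference passed.

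NMDA receptors combine an obligatory subunit, not analysed here, with GluN2 and GluN3 subunits that set the timing and magnesium block of the channel. *Grin2a*, *Grin2c* and *Grin2d* rose by 1.04, 0.86 and 0.96 on the log2 scale, and *Grin2b*, *Grin3a* and *Grin3b* did not pass. With arrays centred on the floor genes all 6 were lower, as were 16632 of all 19937 genes. *Grin2d* read 6.15, 6.35 and 6.37 in NCPs, against 5.12, 5.34 and 5.51 (lowest, median, highest) in total embryo, and *Grin2c* read 6.04, 6.26 and 6.27 in NCPs, against 5.13, 5.35 and 5.49 in total embryo. For both, the NCP arrays were tightly grouped and above every total embryo array, yet below the NCP floor limit. *Grin2b* read 6.62, 6.45 and 7.02 in NCPs, against 6.17, 6.37 and 6.66 in total embryo. It was above the floor limit on NCP 3 only, with a level difference of 0.37 (95% interval 0.02 to 0.73, adjusted p = 0.13). *Grin3a* read 5.45, 7.31 and 6.38 in NCPs, against 5.33, 5.65 and 6.09 in total embryo, so that NCP 2 alone exceeded the floor limit and NCP 1 lay within the total embryo range.

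GABA-A receptors are made mostly of alpha, beta and gamma subunits, with the delta, epsilon, theta, pi and rho subunits in rarer forms. Of the 16 members of the class, 11 rose and 1 fell as deposited, with a median log2 fold change of 0.68. The median total embryo level of the class was 5.07, in the second of the 5 bins. In the lowest and second bins, 95.3% and 57.3% of other genes were also called higher. The median was -0.079 under cyclic loess and -1.01 with arrays centred on the floor genes, and the median level difference was -0.085. *Gabra6* and *Gabrq* had the largest increases of the class. *Gabra6*, known from cerebellar granule cells, read 5.54, 6.20 and 5.73 in NCPs, against 3.81, 3.85 and 4.04 (lowest, median, highest) in total embryo. *Gabrq*, the theta subunit, read 5.90, 6.23 and 5.76 in NCPs, against 4.19, 4.31 and 4.44 in total embryo. Neither was above the floor limit on any array of either group. The log2 fold changes were 1.91 ± 0.17 for *Gabra6* (adjusted p = 8.98e-07) and 1.64 ± 0.15 for *Gabrq* (adjusted p = 1.46e-06, limma, SE, n = 3 and 7), and the level differences of 0.30 for each did not pass. With arrays centred on the floor genes they were 0.22 and -0.053.

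*Gabrb2*, a beta subunit, had the highest total embryo level of all members and the largest decrease. It read 5.46, 6.53 and 5.84 in NCPs, against 7.28, 7.84 and 8.14 (lowest, median, highest) in total embryo, and the groups were well apart. The log2 fold change was -1.76 ± 0.25 (SE, n = 3 and 7, adjusted p = 4.41e-05, limma) and the level difference -0.53 (adjusted p = 0.19), which without NCP 2 was -0.88 and passed (adjusted p = 0.020). Of its 3 probe sets only this brightest one passed. The others had fold changes of -0.17 (adjusted p = 0.63, limma) and -0.47 (adjusted p = 0.11) with overlapping groups, so the probe sets disagreed. *Gabrb1* rose by 1.15 on the log2 scale, with 6.45, 6.20 and 5.93 in NCPs, against 4.85, 5.07 and 5.27 in total embryo, and the groups did not overlap.

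The other alpha subunit genes, *Gabra2*, *Gabra3*, *Gabra4* and *Gabra5*, rose by 1.07, 0.60, 0.55 and 0.46 on the log2 scale, with adjusted p between 0.024 and 0.046. All 4 calls were lost with only the total embryo arrays of the NCP title series, with arrays averaged per title code and with the title code as a random block. *Gabra5* kept its call in 5 of 23 alternative settings and *Gabra3* in 9 of 22. Leaving out NCP 3 also ended the calls of *Gabra2* and *Gabra3*, leaving out NCP 1 those of *Gabra3*, *Gabra4* and *Gabra5*, leaving out NCP 2 that of *Gabra5*, and leaving out total embryo array 1 those of *Gabra3* and *Gabra5*. The *Gabra5* call was further lost without total embryo array 3, 4, 6 or 7. *Gabra2* read 5.77, 5.67 and 7.88 in NCPs, against 5.12, 5.24 and 5.68 in total embryo. NCP 3 held the highest NCP value of any member, and the SD of 1.25 over the NCP arrays was the largest among members. The gamma subunits did not pass: *Gabrg3* averaged 6.30 ± 0.37 in NCPs and 5.87 ± 0.15 in total embryo, and *Gabrg1* averaged 5.17 ± 0.88 in NCPs and 5.10 ± 0.27 in total embryo. *Gabrg1* read 4.18 on NCP 1, below every total embryo array, and 5.85 and 5.50 on NCP 2 and 3, where the highest total embryo array read 5.49.

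*Gabrd* read 6.81, 6.12 and 6.79 in NCPs, against 5.17, 5.52 and 5.59 in total embryo, and all NCP values were higher. It rose by 1.14 ± 0.19 on the log2 scale (SE, n = 3 and 7, adjusted p = 0.00018, limma), and its level difference of 0.52 (95% interval 0.10 to 0.93) had an adjusted p of 0.079. *Gabre*, the epsilon subunit, rose by 0.87. *Gabrp*, the pi subunit, known from epithelial and reproductive tissue, averaged 6.09 ± 0.28 in NCPs and 6.33 ± 0.29 in total embryo and did not pass. Of the rho subunits, best known from the retina, *Gabrr1* and *Gabrr3* rose by 0.75 and 1.31, although *Gabrr1* lost its call without NCP 1 or NCP 3 and with the title code as a random block, whereas *Gabrr2* read 4.16, 5.04 and 6.49 in NCPs, against 4.43, 4.64 and 5.03 in total embryo. Its NCP values spanned the total embryo range and the difference did not pass (adjusted p = 0.21).

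Several GABA-A genes are chromosomal neighbours, and as deposited neighbours did not always move together. In the RefSeq gene order *Gabra6* and *Gabrb2* lie next to each other, with log2 fold changes of 1.91 and -1.76 and total embryo means of 3.91 and 7.71. *Gabrg1* and *Gabra2* lie next to each other, with 0.077 and 1.07. *Gabra4* and *Gabrb1* both rose, by 0.55 and 1.15, as did *Gabra3* and *Gabrq*, by 0.60 and 1.64. The remaining pairs were *Gabrr2* and *Gabrr1* (0.53 and 0.75), *Gabrg3* and *Gabra5* (0.43 and 0.46) and, outside the class, *Gria2* and *Glrb* (-0.43 and 0.30). Against genes of similar level no gene of any pair passed. The level differences were 0.30 for *Gabra6* and -0.53 for *Gabrb2*, and -0.77 for *Gabrg1* and 0.41 for *Gabra2*.

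GABA-B receptors are G protein-coupled pairs of the *Gabbr1* and *Gabbr2* products. *Gabbr1* read 5.89, 6.11 and 6.53 in NCPs, against 6.38, 6.58 and 6.78 (lowest, median, highest) in total embryo, and *Gabbr2* read 5.21, 6.51 and 6.17 in NCPs, against 6.25, 6.48 and 6.76 in total embryo. Each had 1 NCP array inside the total embryo range. The log2 fold changes of -0.41 (adjusted p = 0.053) and -0.50 (adjusted p = 0.086) did not pass, although both genes were called lower with arrays centred on their medians.

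Glycine receptors combine alpha subunits with the beta subunit of *Glrb*, which anchors the receptor to gephyrin. The 4 alpha genes rose as deposited. All 4 were in the lowest bin of total embryo level, where 95.3% of other genes were also called higher. With arrays centred on the floor genes 1 of the 5 glycine receptor genes was higher and 3 were lower, where 573 and 16632 of all 19937 genes were. *Glra3* had the lowest total embryo level and the largest increase of all members. It read 5.37, 6.15 and 5.70 in NCPs, against 3.0, 3.17 and 3.36 in total embryo. The log2 fold change was 2.58 ± 0.18 (SE, n = 3 and 7, adjusted p = 1.79e-07, limma). It was below the floor limit on every array of both groups. The 500 genes nearest in total embryo level had a median log2 fold change of 2.04, and the level difference of *Glra3* was 0.44 (95% interval 0.10 to 0.79, adjusted p = 0.071). *Glra1*, the adult spinal subunit, *Glra2*, the subunit of immature neurons, and *Glra4* rose by 1.32, 0.84 and 0.56, with level differences of -0.13, -0.12 and -0.54. The *Glra4* call was lost without NCP 1 and with the title code as a random block. Without NCP 1 the level difference of *Glra3* was 0.60 and passed (adjusted p = 0.015). *Glrb* averaged 6.02 ± 0.44 in NCPs and 5.72 ± 0.36 in total embryo and did not pass (adjusted p = 0.30).

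**Figure D4:**
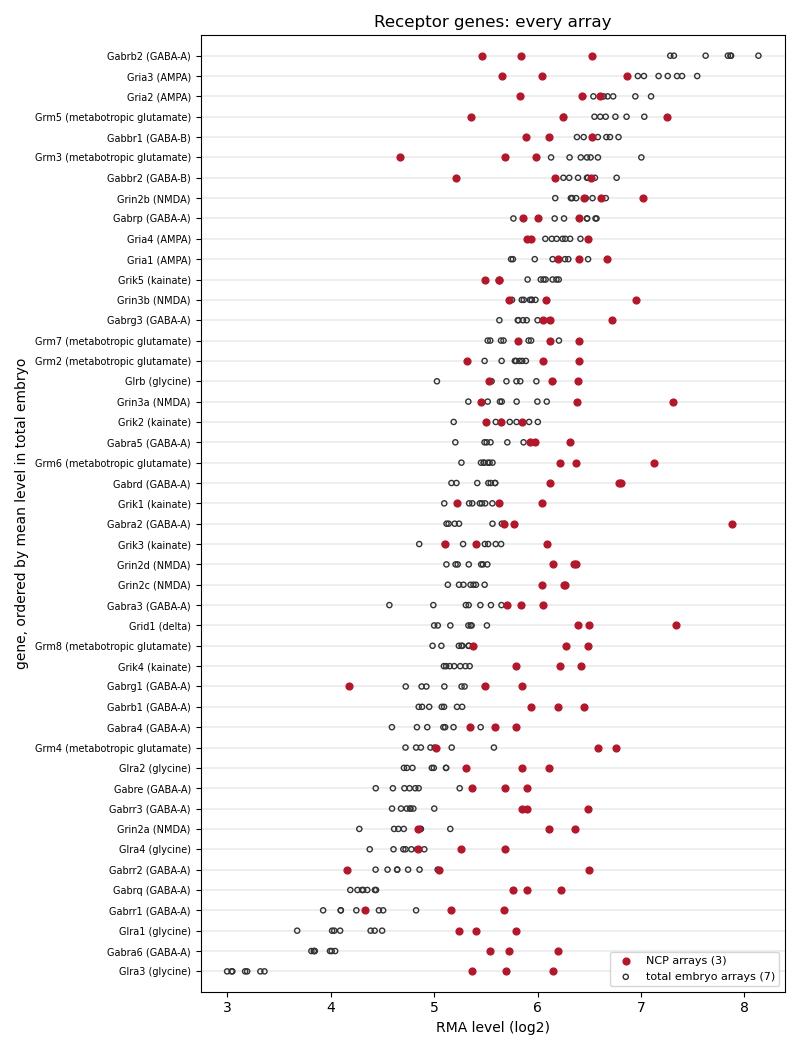
Deposited level (log2, horizontal axis) of every receptor gene on every array, 3 NCP arrays as filled red points and 7 total embryo arrays as open points, ordered by mean total embryo level. The total embryo means run between 3.16 and 7.71, whereas the NCP means lie between 5.06 and 6.74.

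The order of the receptor genes was less repeatable in NCPs than in total embryo. The NCP means of the members lay between 5.06 (*Gabrr1*) and 6.74 (*Grid1*), a width of 1.68, and the total embryo means between 3.16 (*Glra3*) and 7.71 (*Gabrb2*), a width of 4.54. The median SD of a member was 0.40 over the NCP arrays and 0.19 over the total embryo arrays. Over the 46 genes, Pearson's r between pairs of NCP arrays was 0.17 to 0.18 (3 pairs), where over all genes it was 0.52 to 0.63. Between total embryo arrays r over the 46 genes was 0.93 to 0.96 within a title code (9 pairs) and 0.90 to 0.97 between codes (12 pairs). An NCP array against a total embryo array gave 0.12 to 0.45 (21 pairs). These are correlations across genes, which are not independent replicates, and the narrower range of the NCP values enters them. Whether members next to each other in the order of NCP means differed beyond their spread was not tested.

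The genes that make, move and clear the transmitters, and the partners of the receptors, were followed through 7 lists. Of all 19937 genes, 6932 rose and 6188 fell as deposited. Against genes of similar level 1642 were higher and 1733 lower. Whether the counts of a list differed from these shares was not tested. Of 8 genes of GABA synthesis, transport and breakdown, 1 rose and 4 fell as deposited. *Gad1*, which makes GABA, averaged 5.92 in NCPs and 4.98 in total embryo (log2 fold change 0.93), with a level difference of 0.01. *Slc6a12*, a betaine and GABA transporter, averaged 5.55 in NCPs and 6.53 in total embryo (-0.98) and was also lower against genes of similar level (-0.79). Of 11 genes of glutamate transport and metabolism, 2 rose and 3 fell as deposited. Against genes of similar level 0 of the 11 were higher and 4 were lower, with a median level difference of -0.35. *Glud1*, glutamate dehydrogenase, fell by 3.04 on the log2 scale and had a level difference of -1.06 (adjusted p = 0.0044). Of 6 genes of glycine transport and breakdown, 3 rose and 1 fell, *Dld*, a subunit of the glycine cleavage system and of other mitochondrial complexes, with -3.71 and a level difference of -1.37. Of the 4 chloride transporters, which set whether GABA depolarizes a cell, *Slc12a2* (NKCC1, chloride uptake) fell by 2.54 and *Slc12a5* (KCC2, chloride export) rose by 0.84, and neither passed against genes of similar level.

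Among the receptors' partners, 3 of 12 auxiliary subunit genes of glutamate receptors rose and 1 fell as deposited. Against genes of similar level 0 of these 12 were higher and 2 were lower. The one that fell as deposited, *Neto1*, which modifies kainate and NMDA receptors, averaged 4.96 in NCPs and 5.93 in total embryo. It fell by 0.97 on the log2 scale, with a level difference of -1.25 (adjusted p = 0.013). Of 18 glutamate receptor scaffold genes 4 rose and 4 fell. *Grip1*, which binds AMPA receptors, rose by 0.94 with a level difference of 0.52 (adjusted p = 0.026). Of 12 scaffold genes of GABA and glycine receptors 1 rose and 7 fell as deposited, with a median log2 fold change of -0.82. Their median total embryo level was 7.05, in the fourth bin. There 55.8% of other genes were also called lower, with a median log2 fold change of -0.63. Against genes of similar level 0 of the 12 were higher and 1 was lower. *Gphn*, gephyrin, averaged 5.48 in NCPs and 7.93 in total embryo, with a level difference of -1.03 (adjusted p = 0.0010). *Nlgn2*, which organizes inhibitory synapses, rose by 0.56.

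The labelled cell type was checked against marker lists. Of 9 neural crest and glial genes, 3 rose and 3 fell as deposited. Against genes of similar level 2 of the 9 were higher in NCPs (*Sox10* at 1.22 and *Foxd3* at 0.78) and 2 were lower (*Fabp7* at -1.74 and *Erbb3* at -0.95). Of 14 peripheral neuron genes 7 rose and 3 fell as deposited, with log2 fold changes from -3.72 to 1.58. Against genes of similar level 5 were higher, 0 were lower and 9 did not pass. By that measure *Isl1* was at 1.13 and *Nefm* at 2.19. Of 14 brain genes 8 rose and 2 fell as deposited, with a median level of 6.19 in NCPs and 5.55 in total embryo. Against genes of similar level 2 of them were higher and 2 were lower. All 9 liver genes fell as deposited, with a median level of 6.18 in NCPs and 11.8 in total embryo, as did 11 of 12 smooth muscle and mesenchyme genes, 7 of 10 epithelial genes, 6 of 7 endothelial genes, all 8 immune genes and all 9 housekeeping genes (median -1.59). In the fourth and highest bins of total embryo level, 55.8% and 90.2% of other genes were also called lower. Against genes of similar level, 9 liver, 6 smooth muscle and mesenchyme, 4 epithelial, 0 endothelial, 2 immune and 2 housekeeping genes were lower. By that measure 1 smooth muscle and mesenchyme gene and 2 housekeeping genes were higher. The part of other cell types in the total embryo levels of the receptor genes was not tested.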

How the data were processed

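RNA of 3 NCP samples and 7 total embryo hybridizations was measured on Affymetrix mouse Gene ST arrays. Per the labels, the authors summarised probe intensities with RMA in Affymetrix Expression Console (version 1.1) and deposited log2 values for 34760 probe sets. The labels and the methods name different labelling kits, and which arrays were normalized together is not given in the sources used here. RMA equalizes array distributions when arrays are processed together, and the NCP distribution was narrower as deposited.

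From these, 6568 controls were removed, and all 28192 others entered the tests with no filter on low values. Gene names came from the platform annotation: 21640 probe sets had one symbol, 1321 several and 5231 none. NCP and total embryo were compared with limma (version 3.58.1, R 4.3.3; lmFit and eBayes, Benjamini-Hochberg over all probe sets, threshold 0.05). For the level difference, a lowess trend (span 0.3) was subtracted per array first. The test was also run on simulated data with independent noise and the same SD in both groups for each probe set. That simulation held neither the wider NCP spread nor any likeness within a title code. It therefore cannot show the error rates under those conditions. Arrays have no read depth; their number limits the precision. Values on every array are given for members past the threshold in both fits, the 3 largest increases and decreases and the 3 highest total embryo means; other members shown on every array were chosen after their values were seen. From each gene list, at most the 2 largest increases and decreases are named, apart from *Sox10*, *Erbb3* and *Nefm*. The members and lists were chosen with earlier results of these data known. Raw scanner files were not used. Alternatives covered the control arrays, title codes, scaling, priors, weights, dim probe sets (mean at or under the floor limit in both groups) and each array left out.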

Additional observations from a re-analysis of the deposited data

Results flagged for a closer look

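*Grm6* on total embryo array 6 was the lowest of the 7 total embryo arrays, at 5.26, whereas the next lowest was 5.45 and the highest 5.56. The gap is large for a group of 7 by Dixon's test. Of the 46 members it was the only one with such an array in total embryo, and chance marks about 1 in 20 groups. The 3 NCP arrays were too few for this test.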

How the results depend on the processing

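As deposited, 23 members were higher, 4 lower and the median log2 fold change was 0.54. With only the total embryo arrays of the NCP title series, 13 were higher and 2 lower. With only the array that shares the NCP title ending, a single control assumed to vary like the NCPs, 0 were higher and 0 lower, with a median of 0.71. Averaging per title code gave 9 and 1, and the title code as a random block gave 15 higher. A second quantile normalization gave 12 higher with a median of 0.22, cyclic loess 6 higher and 6 lower with a median of -0.12, centring on array medians 7 lower, and centring on the floor genes 1 higher and 38 lower with a median of -1.15. Of all 19937 genes, cyclic loess gave 2913 higher and 3404 lower, and centring on the floor genes 573 and 16632. Leaving out dim probe sets kept 24 members, of which 3 were higher, with a median of 0.20. Leaving out each array gave 19 to 25 higher and 4 to 6 lower. Against genes of similar level, 1 was higher and 2 lower. Taking the level over all arrays gave 6 and 6. Crossing the title codes, averaging them, blocking on them or weighting arrays gave 0 and 0, and without dim probe sets 0 were higher. Leaving out each array gave 0 to 4 higher and 1 to 6 lower. Centred on the floor genes, *Gabrq* turned to -0.053 and *Grid1* to -0.20. Leaving out each array gave level differences of -0.22 to 0.12 for *Gria2* (highest without NCP 2) and of -0.61 to 0.067 for *Gria3* (highest without NCP 3). The cause was not tested. Lowess spans, a running median and the trended prior left the counts within 1.5 times. No paired analysis was possible because the labels give no replicate numbers. The narrow range of the NCP arrays limits what can be measured near the floor.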
